A study of Mus musculus with 3 samples.

Results

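The Bcl2 family was measured in EpH4-PR cells, mouse mammary epithelium carrying a stable transgene for the A isoform of the progesterone receptor (PR-A), as levels relative to a commercial mouse reference RNA. The 10 genes described here were Bcl2, Bcl2l1, Mcl1, Bax, Bak1, Bid, Bad, Bcl2l11, Bbc3 and Pmaip1, and every array probe carrying one of these names was taken, which gave 17 of the 41174 probes and 10 of the 29273 gene names on the array. All 3 Agilent whole mouse genome arrays held EpH4-PR RNA in Cy5 and the reference RNA, labelled as the Stratagene mouse standard, in Cy3, with no dye swap. The cells were grown in DMEM with 10% FBS to about 75% confluence, with no progesterone named for the arrays. The growth medium that the paper names for the arrays also contained neomycin (G418). Clones had been selected after transfection, although whether the line is a single clone is not given in the sources used here. Cells transfected with the empty vector (EpH4-EV) were not analysed here, so no value below measures an effect of PR, and a ratio can differ from 0 through either RNA or through the dyes, which cannot be told apart.

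Proteins of the Bcl2 family decide whether the outer membrane of the mitochondrion stays sealed or releases cytochrome c, the step that commits a cell to apoptosis through the intrinsic pathway. Bcl2, Bcl2l1 (Bcl-x) and Mcl1 are anti-apoptotic and hold back Bax and Bak1, the effectors that form the pores, while proteins that share only the BH3 domain (Bid, Bad, Bcl2l11 or Bim, Bbc3 or Puma, and Pmaip1 or Noxa) sense stress and either occupy the anti-apoptotic members or engage the effectors. In the mammary gland the family is best known for the loss of milk-producing epithelium after weaning. Transcript levels do not measure this activity, much of which is set by protein turnover, phosphorylation, cleavage and binding.

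The 3 arrays were alike, with Pearson correlations of the log2 ratios between 0.923 and 0.952 across probes, which are not independent replicates. Median spot intensities were 93.8 to 113 in Cy5 and 108 to 142 in Cy3 against median local backgrounds of 39 to 43. Whether the arrays held separate cultures is not stated, so the p-values measure only the spread between arrays, which may be technical. The epithelial label was checked against marker genes. Of 9 luminal epithelial genes, 8 had a probe higher than the reference RNA by at least 1 log2 unit (Cdh1, the epithelial cadherin, at 4.29 ± 0.097, SD, n = 3). Krt19 was the exception at -2.62 ± 0.18. Cdh1 was dim in Cy3, at 116 to 146 where the medians of negative control spots were 91.5 to 121. Krt19 was dim in Cy5, at 85.4 to 106 where those medians were 57.0 to 73.7. Their sizes depended on the processing, and ranged from 4.24 to 5.62 for Cdh1 and from -4.06 to -2.02 for Krt19. All 5 mesenchymal genes had a probe lower by at least 1 log2 unit, but only 6 of their 11 probes reached it and 2 did not pass. The lower Vim probe was still well above background in Cy5 (918 to 1083), so these ratios do not show absence in the cells. Both probes named for Pgr, the progesterone receptor gene, were well above background in Cy5 on only 1 of the 3 arrays. Of these probes, A_52_P413840 is annotated to a cDNA clone and did not match a RefSeq transcript. Without probe or construct sequences, whether either covers the transfected PR-A cDNA is not known. These values therefore do not show whether the transgene was expressed, and the paper describes the cells as expressing PR-A constitutively.

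Of the 10 genes, 6 had a probe higher in EpH4-PR cells than in the reference RNA (Bcl2, Bcl2l1, Bax, Bak1, Bid and Bad), 3 had a probe lower (Mcl1, Bbc3 and Pmaip1), and Bcl2l11 did not pass. By limma with Benjamini-Hochberg adjustment over all probes, 10 of the 17 probes (58.8%) were higher at an adjusted p under 0.05, where 25.7% of all probes were. A further 4 (23.5%) were lower, where 24.6% of all probes were, so the share of lower probes was near that of the array. Of the 10 higher probes, 6 were repeat probes of Bcl2 and Bcl2l1. With a filter on dim probes, the family's counts were the same and the array's shares were 33% higher and 29.5% lower. With the added limit of 1 log2 unit, 2 probes were higher (Bid and 1 of Bcl2l1), against 2.25% of all probes, and 3 were lower (both of Mcl1, and Pmaip1), against 3.85%. This last split depended on the processing: under median centring of each array 8 probes of the family were higher and 1 lower by this limit, where 7029 and 709 of all probes were. The median log2 ratio over the 17 probes was 0.29, and that over all probes was -0.0094. No gene had probes called in opposite directions, although the 2 Bad probes did under median centring (-0.33 and 0.27). Between arrays the family's probes had a median SD of 0.067, and the largest was 0.22, for a Bak1 probe.

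**Figure D1:**
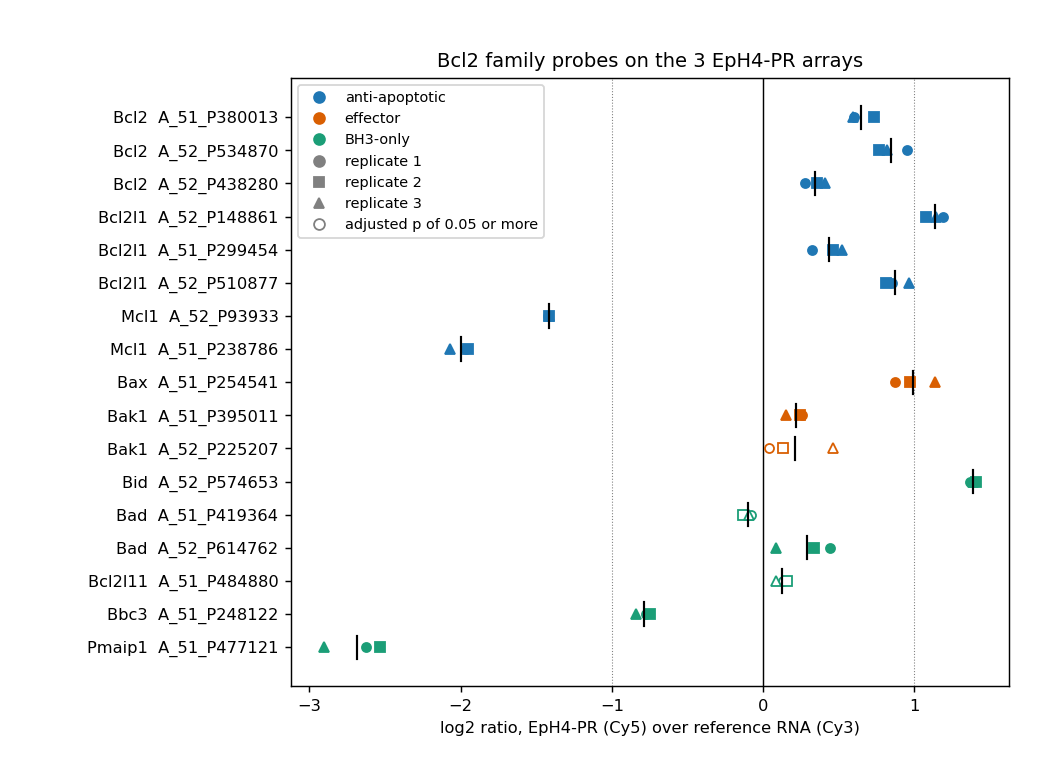
Log2 ratio of EpH4-PR RNA (Cy5) over reference RNA (Cy3) for each of the 17 probes; symbols mark replicates 1, 2 and 3, the black line their mean, colours the role of the gene, and open symbols an adjusted p of 0.05 or more. Bid lies highest at 1.39 and Pmaip1 lowest at -2.69, and the Mcl1 probes lie apart from those of the other anti-apoptotic genes.

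The anti-apoptotic genes divided into a higher pair and a lower gene. Bcl2l1, whose main product Bcl-x(L) is a broad inhibitor of Bax and Bak1, had 3 probes, and each was higher than the reference RNA. Its highest probe (A_52_P148861) read 1.19, 1.08 and 1.15 on replicates 1, 2 and 3, averaging a log2 ratio of 1.14 ± 0.054 (SD, n = 3) or 2.20-fold (adjusted p = 5.43e-05, limma). Its next probe (A_52_P510877) read 0.85, 0.81 and 0.96, a mean of 0.88 ± 0.078, and its lowest (A_51_P299454) read 0.33, 0.47 and 0.52, a mean of 0.44 ± 0.099. The 3 probes thus gave the same direction but spread over 0.70 log2 units, more than the spread of any of them between arrays. In the reference channel the last of these probes was only 1.08 to 1.18 times the median of the negative control spots, and the one before it 1.12 to 1.15 times, whereas the highest probe was 1.74 to 2.03 times. When the ratio was taken from the scanner software, these dim probes moved furthest, to 1.53 for A_51_P299454 and 2.39 for A_52_P510877.

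Bcl2, the founding member of the family, also had 3 probes, all higher than the reference RNA. The probe A_52_P534870 read 0.95, 0.76 and 0.82, a log2 ratio of 0.84 ± 0.096 (SD, n = 3; 1.80-fold, adjusted p = 0.000205, limma). The probe A_51_P380013 read 0.60, 0.74 and 0.60, a mean of 0.65 ± 0.078. The third, A_52_P438280, which is annotated to a cDNA clone and not to a RefSeq transcript, read 0.28, 0.36 and 0.41, a mean of 0.35 ± 0.067. The arrays of the first pair of probes did not overlap those of the third. In Cy5 the first pair lay 9.92 to 16.1 times above the median negative control spot, and the third 2.43 to 3.02 times.

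Mcl1, a short-lived anti-apoptotic protein that binds Bak1 and the BH3-only protein Pmaip1, was lower on both of its probes. The probe A_52_P93933 read -1.42, -1.41 and -1.41, a log2 ratio of -1.42 ± 0.0057 (SD, n = 3; adjusted p = 2.68e-05, limma), a level 2.67-fold lower than in the reference RNA. The probe A_51_P238786 read -1.96, -1.95 and -2.07, a mean of -2.00 ± 0.067 (3.99-fold lower, adjusted p = 1.91e-05). All arrays of both probes lay below those of every other anti-apoptotic probe. These transcripts were well detected in EpH4-PR cells: the Cy5 intensity of A_52_P93933 was 885, 768 and 862 and its Cy3 intensity 919.7, 834 and 889, so the raw channels were nearly level. For this probe the difference enters with the dye normalization, since probes of like brightness were brighter in Cy5 than in Cy3. The probe A_51_P238786 was lower before it as well, with 1012, 823 and 951 in Cy5 against 1435, 1229 and 1472 in Cy3. With each array centred on its median in place of loess, the probes stayed below 0, at -0.17 and -0.70, while the median of probes of like brightness was 1.30 for both.

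The distance between these genes held within every array. Averaged over probes, the log2 ratio of Bcl2l1 exceeded that of Mcl1 by 2.48, 2.47 and 2.62 on replicates 1, 2 and 3, averaging 2.52 ± 0.084 (SD, n = 3), and the difference ranged from 1.79 to 3.65 over the other ways of processing. Bcl2 exceeded Mcl1 by 2.32 ± 0.029, with a range of 1.86 to 2.75. Bcl2l1 exceeded Bcl2 by only 0.20 ± 0.055, and this order turned under median centring, to -0.064. These pairs were chosen after the values were seen and are given without a test.

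**Figure D2:**
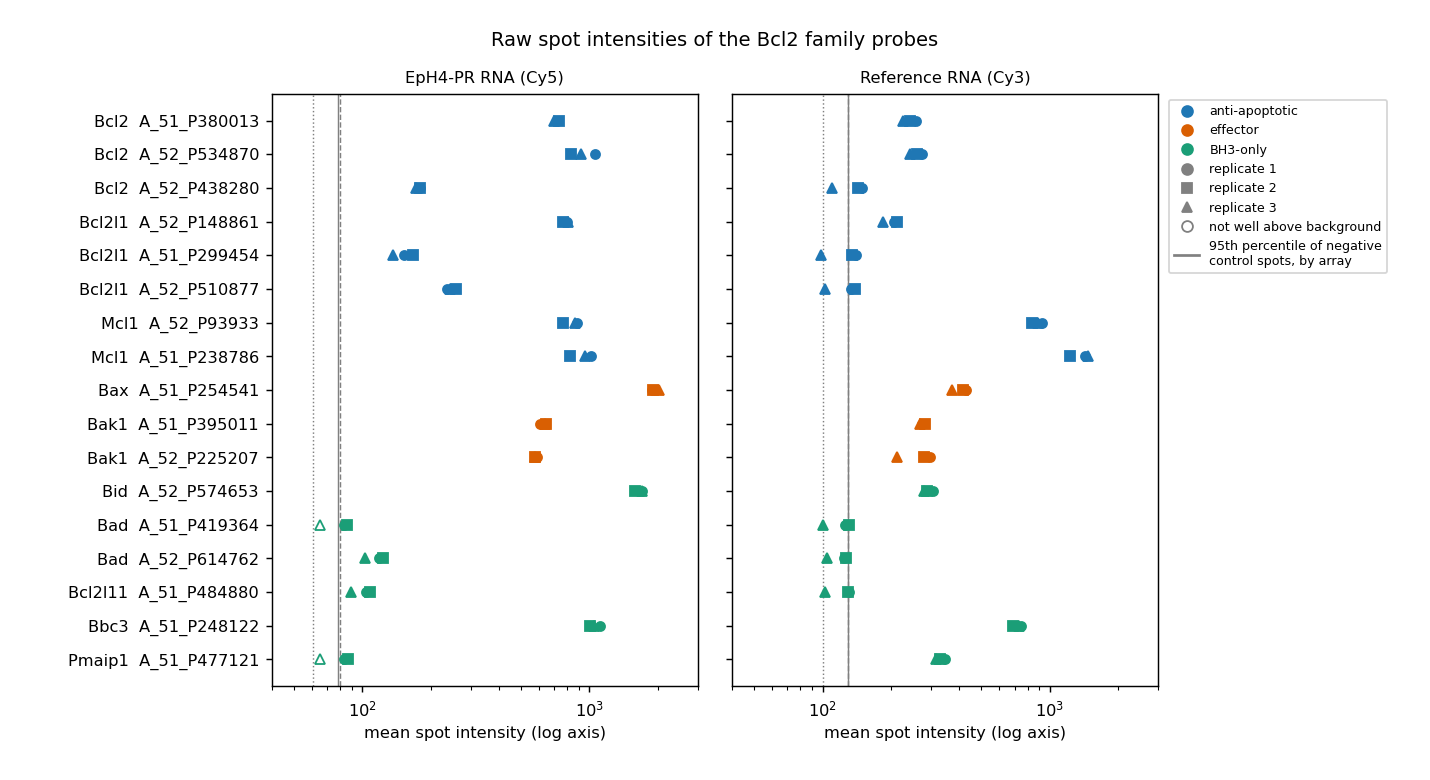
Mean spot intensity on a log axis in Cy5 (EpH4-PR RNA, left) and Cy3 (reference RNA, right) for each probe and array; open symbols were not well above background, and grey lines give the 95th percentile of the negative control spots of each array. Bad, Bcl2l11 and Pmaip1 sit close to those lines in Cy5, whereas Mcl1 and Bbc3 are bright in both channels.

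Of the effectors, Bax was higher in EpH4-PR cells, and Bak1 had smaller ratios, of which 1 of 2 passed. Bax, which moves from the cytosol to the mitochondrion when activated, had 1 probe (A_51_P254541) with log2 ratios of 0.87, 0.97 and 1.14, a mean of 0.99 ± 0.14 (SD, n = 3) or 1.99-fold (adjusted p = 0.000215, limma). Its Cy5 intensity of 1877, 1896 and 2031 was 25.7 to 35.6 times the median negative control spot, and its Cy3 intensity was 427, 417 and 372. Bak1, the effector that resides in the mitochondrial membrane, had 2 probes. The first (A_51_P395011) read 0.26, 0.25 and 0.15, a mean of 0.22 ± 0.057 with an adjusted p of 0.0140, and the second (A_52_P225207) read 0.04, 0.13 and 0.46, a mean of 0.21 ± 0.22 with an adjusted p of 0.112 (limma). The means of the 2 probes were nearly the same, but replicate 3 was high on the second. The call of the first probe was lost without replicate 1 (0.20, adjusted p = 0.0811) and without replicate 2 (0.20, adjusted p = 0.0923), and its adjusted p ranged from 1.79e-07 to 0.0923 over the alternatives. That call was also lost with a normexp offset of 0 (0.23, adjusted p = 0.0789, limma), and held in 9 of the 13 alternatives. Under median centring both probes were higher, at 1.24 and 1.21, and the second also passed with median spot intensity (0.32, adjusted p = 0.0374). Within each array the ratio of Bax exceeded that of Bak1, by 0.78 ± 0.055 on average, and by 0.71 to 1.02 over the other ways of processing.

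The BH3-only genes covered the whole span of the family, from its highest to its lowest ratio. Bid, which is cut by caspase 8 and carries the signal of death receptors to the mitochondrion, read 1.37, 1.41 and 1.39 on its only probe (A_52_P574653), a log2 ratio of 1.39 ± 0.019 (SD, n = 3). This was the highest of the 17 probes, 2.62-fold above the reference RNA (adjusted p = 2.79e-05, limma), and its arrays did not overlap those of the next probe, Bcl2l1 A_52_P148861. Its Cy5 intensity was 1706, 1582 and 1703 and its Cy3 intensity 306, 287 and 279. By gene means, Bid stayed highest in 12 of 13 alternatives, and when ratios came from the scanner software Bcl2l1 lay above it (1.81 against 1.56).

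At the other end, Pmaip1 (Noxa), a p53 target whose product binds Mcl1 and promotes its degradation, read -2.62, -2.53 and -2.90 on its only probe (A_51_P477121). The mean was -2.69 ± 0.19 (SD, n = 3; adjusted p = 2.87e-05, limma), a level 6.44-fold lower than in the reference RNA. It was the lowest of the 17 probes under every alternative that changed the ratios. The Cy5 intensity was 83.4, 86.3 and 65.4, or 1.15 to 1.17 times the median negative control spot, and it was well above background on replicates 1 and 2 only. The Cy3 intensity was 346, 329.9 and 316, or 2.73 to 3.45 times that median. The EpH4-PR level therefore lay near the lower limit of the measurement, and the size of the ratio followed the background correction, from -2.69 to -4.43 with a normexp offset of 0 and -4.89 by the ratio of the scanner software.

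Bbc3 (Puma), a BH3-only protein that binds all of the anti-apoptotic members and is also a p53 target, read -0.77, -0.74 and -0.84 on its only probe (A_51_P248122), a mean of -0.78 ± 0.048 (SD, n = 3; adjusted p = 0.000142, limma). Unlike Pmaip1, it was bright in both channels, with a Cy5 intensity of 1114, 1002 and 1048 and a Cy3 intensity of 747, 691 and 728. Its direction turned under median centring, to 0.46, where the median of probes of like brightness was 1.30. Bbc3 thus lay below probes of its own brightness in both cases, but above the reference RNA when brightness was left out of the normalization.

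Bad and Bcl2l11 had small ratios, and both genes were dim. Bad, which binds Bcl2 and Bcl2l1 and is silenced by survival kinases, read -0.08, -0.13 and -0.09 on the probe A_51_P419364 (mean -0.10 ± 0.030, adjusted p = 0.103) and 0.44, 0.34 and 0.09 on the probe A_52_P614762 (mean 0.29 ± 0.18, SD, n = 3, adjusted p = 0.0308, limma). The second, the only Bad probe called higher, is annotated to a cDNA clone and did not match a RefSeq transcript. The second probe did not pass without replicate 1 (0.21, adjusted p = 0.123) or without replicate 2 (0.27, adjusted p = 0.126), and its adjusted p over the alternatives ranged from 0.00167 to 0.193. This probe also did not pass with a normexp offset of 0 (adjusted p = 0.0636, limma) or by the ratio of the scanner software (adjusted p = 0.112, limma). It passed in 7 of the 13 alternatives. The first passed as lower under median centring (-0.33), with a normexp offset of 0 (-0.32, adjusted p = 0.0420) and by the ratio of the scanner software (-0.63, adjusted p = 0.0213), and its adjusted p under median centring was 0.000305. It was well above background in Cy5 on 2 of the 3 arrays, at 83.1, 85.5 and 65.1. Bcl2l11 (Bim), a potent activator of Bax and Bak1, read 0.13, 0.16 and 0.09 on its only probe (A_51_P484880), a mean of 0.12 ± 0.036 with an adjusted p of 0.0649 (limma). It passed as higher by the ratio of the scanner software (0.65, adjusted p = 0.0208). Its Cy5 intensity was 1.44 to 1.57 times the median negative control spot and its Cy3 intensity 1.07 to 1.12 times. The normexp offset of 50 is added to both channels and draws the ratio of a dim probe toward 0, so these values do not show equal levels.

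Depth of signal differed across the family in this way. In Cy5, 15 of the 17 probes were well above background on all 3 arrays, and the other 2 were those of Pmaip1 and Bad named above. In Cy3 all 17 were well above background on all 3 arrays. Of all 41174 probes, 29603 to 30942 were well above background in Cy5 on a given array, and 32590 to 33261 in Cy3. In both channels on all 3 arrays, 15 of the 17 family probes and 25729 of all probes were well above background. Compared with the negative control spots, all 17 family probes lay above their 95th percentile on every array in Cy5, and 13 did so in Cy3. The other 4 were the 2 probes of Bad, the Bcl2l11 probe and the Bcl2l1 probe A_51_P299454. The share of all probes above that percentile is not given here. No probe of the family was saturated or marked as an outlier.

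**Figure D3:**
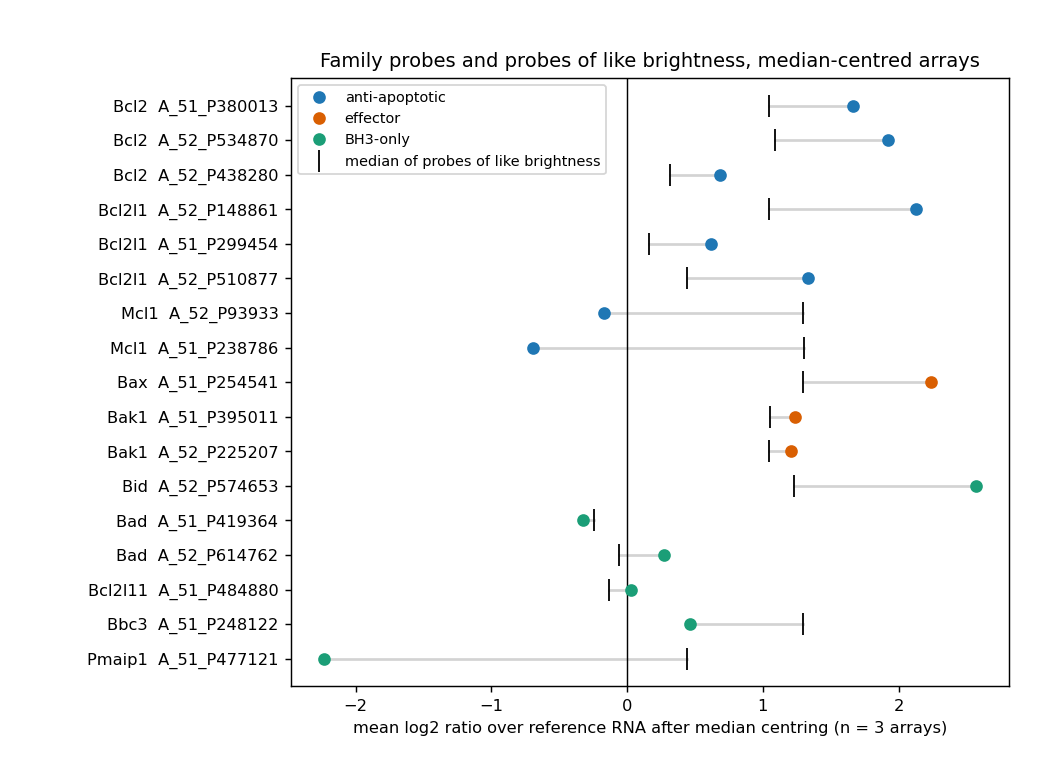
Mean log2 ratio of each probe after median centring (points, n = 3 arrays) and the median over all probes within 0.25 log2 units of its brightness (black ticks). The ticks lie at 1.30 for bright probes and below 0 for the dimmest, so Bbc3 at 0.46 is above 0 but left of its tick, and both Mcl1 probes are left of 0 and of their ticks.

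Placed in order, the ratios fell into a graded upper part and a separated lower part. From Bid down to Bcl2l11, several neighbours overlapped between arrays: Bax overlapped the Bcl2l1 probes next to it on both sides, and from the Bcl2l1 probe A_51_P299454 down to Bcl2l11 each probe overlapped the next. Below them every step was free of overlap. The dimmer Bad probe exceeded Bbc3 by 0.68 ± 0.068 within arrays, Bbc3 exceeded the Mcl1 probe A_52_P93933 by 0.63 ± 0.048, the Mcl1 probes differed by 0.58 ± 0.069, and the lower of them exceeded Pmaip1 by 0.69 ± 0.13 (SD, n = 3). The first and last of these steps depended on the processing. Under median centring Bbc3 lay above that Bad probe (0.46 against -0.33), and by the ratio of the scanner software it lay below it by less (-0.87 against -0.63). The lower Mcl1 probe and Pmaip1 read -2.12 and -4.43 with a normexp offset of 0, -2.14 and -4.89 by the scanner software and -0.70 and -2.24 under median centring, so the last step was larger in each of these. By gene means, Mcl1 and Pmaip1 were the lowest and in the same order in all 13 alternatives, some of which left the ratios unchanged and could not alter the order. The median log2 ratio by role was 0.54 over the 8 anti-apoptotic probes, 0.22 over the 3 effector probes and 0.011 over the 6 BH3-only probes, each of which mixes higher and lower genes except the effectors.

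**Figure D4:**
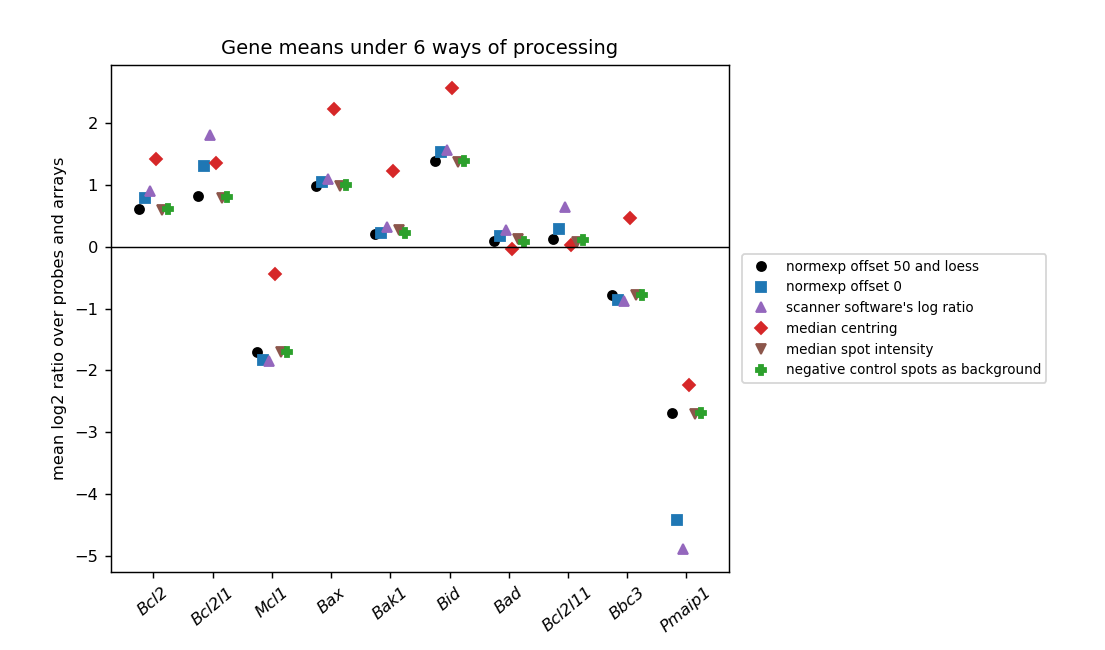
Mean log2 ratio of each gene over its probes and the 3 arrays under 6 ways of processing. Pmaip1 and Mcl1 are the lowest genes in each, Bbc3 changes sign under median centring, and the mean of the 2 Bad probes lies at -0.030 there.

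The remaining genes of mitochondrial apoptosis were described from a list of 34 genes, of which 31 had a probe (47 probes). On these, 13 probes were higher (27.7%, against 25.7% of all probes) and 15 lower (31.9%, against 24.6%) than the reference RNA at an adjusted p under 0.05, and the median log2 ratio was 0.0076. Without replicate 1 there were 8 higher and 15 lower, and under median centring 26 higher and 11 lower. Of the other Bcl2 family members, 7 of 18 probes were lower (38.9%), 3 of them of Bnip3 and Bnip3l, 1 was higher and 10 did not pass. The largest differences were those of Bok, a relative of Bax and Bak1, which read -3.43, -3.37 and -3.56 (mean -3.45 ± 0.094, SD, n = 3), and of Bnip3, a mitochondrial protein induced by hypoxia and active in mitophagy, which read -3.04, -2.94 and -2.96 (mean -2.98 ± 0.054). Each had an adjusted p of 1.13e-05 (limma), and on all 3 arrays both dyes read well above background. Its relative Bnip3l was lower on both probes, at -1.51 ± 0.084 and -1.15 ± 0.032, although the second turned to 0.13 under median centring. Bok lay below Pmaip1, which was near background in Cy5, but not with a normexp offset of 0 (-4.18 against -4.43) or by the ratio of the scanner software (-4.26 against -4.89).

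Downstream of the mitochondrion, 5 of 12 probes of the apoptosome and caspase genes were higher (41.7%) and 4 lower (33.3%). Over all probes these shares were 25.7% and 24.6%, so calls in both directions are common on the array. The higher probes of this group included every Cycs probe. Apaf1, the scaffold that cytochrome c binds to activate caspase 9, was lower on 1 probe (A_51_P417701, -1.04 ± 0.087, SD, n = 3). This probe is annotated to a cDNA clone without a RefSeq match, and it moved to -0.16 under median centring. The other 2 did not pass (0.16 and 0.14). They were dim, with Cy3 intensities of 97.4 to 133 where negative control medians were 91.5 to 121, so they are weak evidence of disagreement. Among the other mitochondrial proteins 4 of 11 probes were higher (36.4%) and 2 lower (18.2%). Among the inhibitors of apoptosis 3 of 6 were higher (50%) and 2 lower (33.3%). In neither list did a called probe reach 1 log2 unit. The Xiap probe counted as higher among the inhibitors was not well above background in either channel on any array and gives no level.

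**Figure D5:**
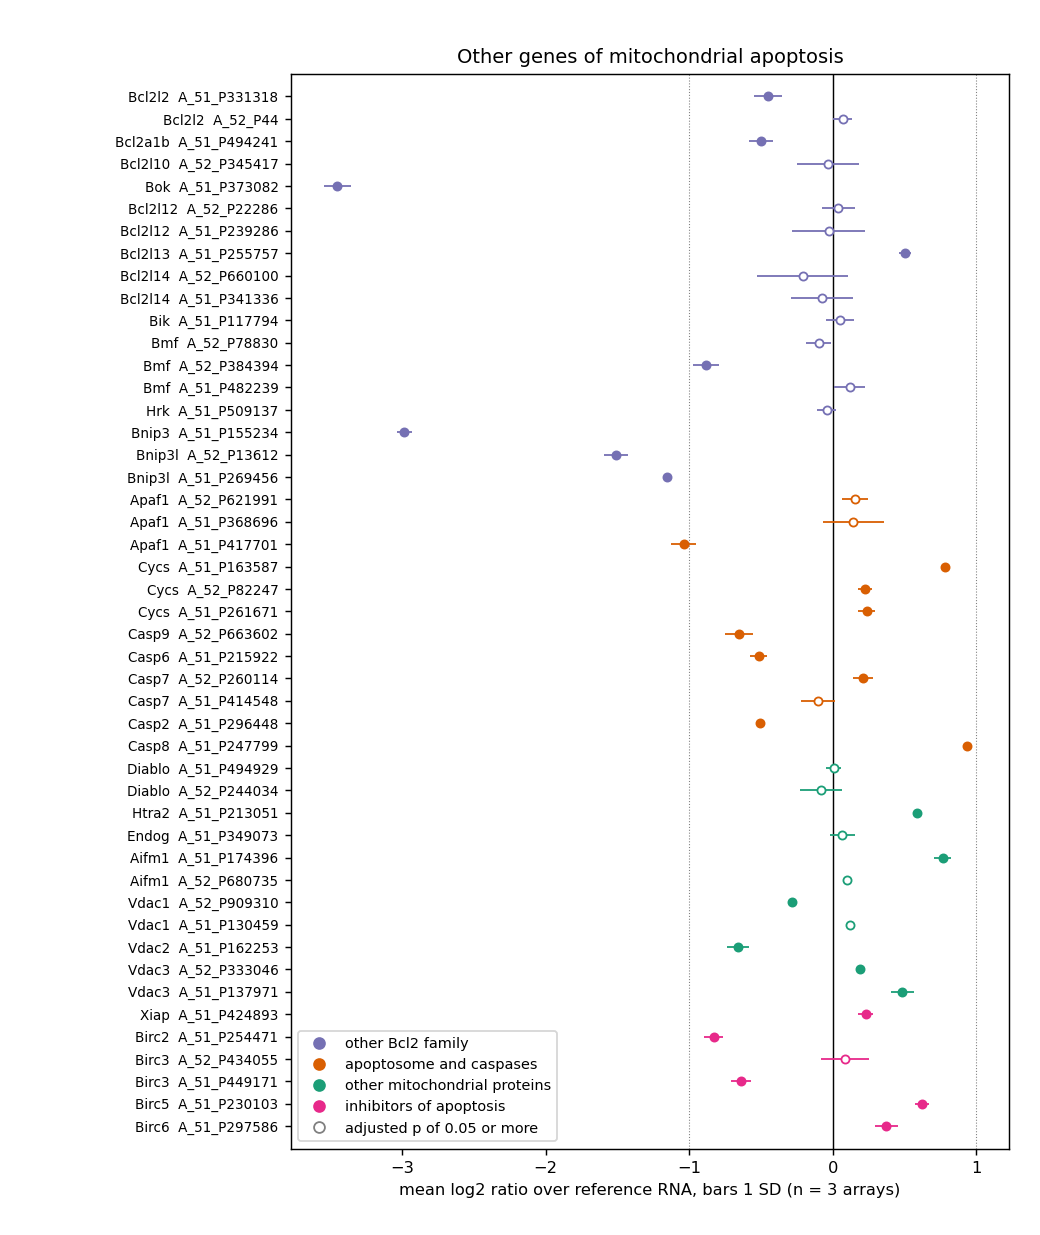
Mean log2 ratio over the reference RNA, with bars of 1 SD (n = 3 arrays), for the 47 probes of the other mitochondrial apoptosis genes; filled points passed an adjusted p of 0.05 and dotted lines mark 1 log2 unit. Bok at -3.45 and Bnip3 at -2.98 are the lowest, the highest probe lies at 0.94, and the filled Xiap point was not well above background in either channel.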

How the data were processed

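RNA of EpH4-PR cells was hybridised to 3 Agilent 2-colour arrays, 1 to a slide, against a reference RNA. The authors deposited the output of Agilent Feature Extraction (version 8.1.1.1, per the file headers): spot and local background intensity in both channels, flags, and a Cy5 over Cy3 log10 ratio after the software's own background subtraction and dye normalization. A deposited table of fold changes, p-values and pooled intensities between unnamed sides was not used here. Here, mean spot intensity was corrected by normexp (offset 50) on local background and normalized by loess within arrays (limma 3.58.1, R 4.3.3); outlier spots (150, 18 and 3) and control spots were left out and spots of a probe averaged. The test against 0 used lmFit and eBayes, with Benjamini-Hochberg adjustment over all 41174 probes. A higher or lower probe had an adjusted p under 0.05. The number of arrays limits the precision. On simulated ratios for this comparison (41007 probes, 200 changed by 1.5 log2 units) 100% of the changes were recovered. The noise was independent and set from the spread between arrays, so recovery at this size was nearly fixed in advance. The simulation began after normalization, so it checks only the fit, and not dye bias, background or smaller ratios.

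Members were matched by gene name, other lists also by current RefSeq symbol (GRCm38.p6). All 10 members are named with every probe, and other pathway genes where a probe passed, reached 1 log2 unit and was well above background in Cy5 on all arrays; pathway and marker lists are those counted in the text. The leukocyte list had 0 of 6 probes higher and 4 lower, the endothelial list 0 of 3 and 1, and the adipocyte list 0 of 4 and 3. An item of the pathway list is not reported here and does not enter its counts. Members, lists and named pairs were chosen with earlier results of these data known. No genome build is named in the files, so no coordinates are printed. Alternatives covered background correction, normalization, a filter on dim probes, outlier spots, spot summary and an intensity trend. They also covered an ordinary t-test of the log2 ratios, each array left out and, added after the data were seen, negative control spots as background. The paper names Student's t-test for differences between groups and cites an earlier study for its array analysis.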

Additional observations from a re-analysis of the deposited data

How the results depend on the processing

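Across the 13 alternatives, 16 of the 17 probes of the 10 genes kept their direction, and the exception was Bbc3, at 0.46 under median centring. Of the other genes named, 1 Bnip3l probe reversed there, to 0.13. The filter on dim probes, outlier spots kept, the intensity trend and the ordinary t-test left all of these ratios unchanged, so no direction could turn in them. The counts of 10 higher and 4 lower probes ranged from 7 to 12 and from 4 to 5. With the limit of 1 log2 unit, the higher probes became 4 with normexp offset 0, 6 by the ratio of the scanner software and 8 under median centring, where the lower probes became 1. For the other mitochondrial apoptosis genes, the 13 higher probes became 26 under median centring and 8 to 14 with 1 array left out, and with the limit of 1 log2 unit 2, 3 and 13 were higher in the same order of settings, while 8 were lower with normexp offset 0 and 2 under median centring. Over all probes, 17495 were higher and 16837 lower under median centring (10563 and 10137 as reported). An ordinary t-test of the log2 ratios called 5479 and 5715 after Benjamini-Hochberg, and 9104 and 8939 before it. With the limit, the counts of 928 and 1584 became 3115 and 3909 with normexp offset 0, 3616 and 3887 by the ratio of the scanner software, and 7029 and 709 under median centring. The median over the family's probes moved from 0.29 to 0.67, 0.81 and 0.68 under these settings and to 0.17 over gene means. A smaller offset draws dim ratios less toward 0; for the other settings the cause was not tested. The ordinary t-test left 3 of the higher calls, the Bcl2l1 probe A_51_P299454, Bak1 and Bad, without an adjusted p under 0.05 (0.0569, 0.0678 and 0.193). Dim probes are limited by negative control spots, whose median was 57.0 to 73.7 in Cy5 and 91.5 to 121 in Cy3. No paired analysis was possible because there is 1 group, and each slide holds 1 array, so no slide block was run.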
